A study of Mus musculus with 24 samples.

Results

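The neuronal pentraxins Nptx1, Nptx2 and Nptxr are 3 of the 19324 genes named in the array annotation and had 7 of its 45101 probe sets. The probe sets were taken by annotation alone, without using their values. Nptx1 had 2 probe sets, Nptx2 had 2, and 3 were annotated to Nptxr together with the overlapping gene Npcd.

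RNA was measured on 24 arrays, 2 for each of 12 groups of cultured neurons from C57Bl/6 mice. The groups crossed 2 cell sources, 2 Npas4 genotypes and 3 times. Cells were taken at embryonic day 14 from the medial ganglionic eminence (MGE), the source of many forebrain inhibitory neurons, or from cortex (CTX), where most neurons are excitatory, and were grown for 10 days. Wild-type (WT) cultures and cultures lacking Npas4 (KO), an activity-dependent transcription factor, came from littermates. Every culture, the controls included, was silenced overnight with tetrodotoxin (TTX) and AP-5, which block sodium channels and NMDA receptors. Depolarization with 55 mM KCl then lasted 0, 1 or 6 h, so that 0 h is a silenced state, not spontaneous activity. The comparisons below address which changes in the neuronal pentraxins followed depolarization, whether they differed in Npas4 KO cultures, and whether they differed between MGE and CTX cultures.

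Neuronal pentraxins are secreted or membrane-bound proteins that gather at synapses and bind the extracellular part of AMPA-type glutamate receptors. Nptx1 and Nptx2 (also called Narp) are secreted and assemble with each other and with Nptxr, a membrane-anchored member that can be released by cleavage. Nptx2 is known as an activity-regulated gene and is known for recruiting AMPA receptors at excitatory synapses onto parvalbumin interneurons.

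Values are RMA intensities on a log2 scale, so a difference of 1 is a doubling. A change was called at an adjusted p under 0.05 (limma, Benjamini-Hochberg over the 26335 probe sets tested). A probe set was tested if it exceeded the array median, which lay between log2 6.84 and 6.92, on at least 2 arrays, and all 7 pentraxin probe sets passed. For each gene the probe set with the highest mean is given first: 1420720_at for Nptx2, 1434877_at for Nptx1 and 1434270_at for Nptxr. The other Nptx2 probe set, 1449960_at, exceeded the median on only 2 arrays, both of CTX WT at 6 h, and so passed through the group in which it was highest. Levels of different probe sets are not compared, because probes differ in affinity. In RefSeq (GRCm38.p6) Nptx1 lies on chromosome 11 from 119538719 to 119547820 and Nptx2 on chromosome 5 from 144545887 to 144557478. Nptxr lies on chromosome 15 from 79786351 to 79804709, wholly within Npcd, which runs from 79786351 to 79834333 and also spans Cbx6. The 3 Nptxr probe sets therefore measure a locus, written Nptxr/Npcd here, and cannot be assigned to 1 of the 2 genes.

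The labels were checked first. Npas4 reached log2 12.04 and 11.20 in MGE WT and 12.03 and 11.77 in CTX WT at 1 h, against 7.35 and 7.0 in MGE KO and 6.80 and 6.85 in CTX KO; whether its probe set lies in the deleted part is not given in the sources used here. The 8 interneuron markers were above the median on every array. The 5 cortical excitatory markers averaged log2 11.37 to 11.8 on CTX arrays and 4.34 to 5.37 on MGE arrays. Astrocyte markers were high in both sources, with list means of log2 9.63 to 10.38 on MGE and 8.3 to 10.01 on CTX arrays, and microglial lists averaged 6.38 to 7.72 and 6.19 to 7.14. Cldn5 and Pecam1 of endothelial cells, Cx3cr1 of microglia and Mog of oligodendrocytes were below the median everywhere. Other members of these lists were not: Mbp, Col1a1 and Pdgfrb exceeded it on all 12 MGE and all 12 CTX arrays. Olig2 exceeded it on 12 MGE and 7 CTX arrays, Tyrobp on 12 and 9, Csf1r on 11 and 7, Aif1 on 1 and 10 and Trem2 on 4 and 0. The progenitor marker Nes exceeded it on every array, with means of log2 10.57 in MGE and 7.69 in CTX. In these mixed cultures a lower value can mean fewer cells of a type or less RNA per cell, which cannot be told apart. The 2 arrays of MGE WT at 0 h were the least alike, with a correlation of 0.958 over probe sets and 2998 probe sets over 2-fold apart. Nothing says that the 2 arrays of a group came from separate litters or preparations, so p-values measure only the spread between these arrays.

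Nptx2, the activity-regulated member, rose after 6 h of KCl in WT cultures of both sources and in CTX KO cultures. In CTX WT cultures its log2 intensity was 6.29 and 5.18 when silenced, 7.18 and 5.22 after 1 h of KCl and 10.92 and 10.46 after 6 h. The CTX KO arrays read 5.88 and 5.11 when silenced, 6.71 and 5.40 after 1 h and 10.24 and 9.53 after 6 h. At 0 and 1 h the CTX arrays overlapped and lay mostly below the array median, while every 6 h array lay far above all of them. The rise at 6 h was log2 4.95 ± 0.59 (SE, n = 2 arrays per group, 31-fold, limma adjusted p = 1.8e-05) in CTX WT and 4.39 ± 0.59 (20.9-fold, adjusted p = 4.5e-05) in CTX KO. Because the 0 h level lay below the array median, where intensities flatten towards background, these folds are approximate. In CTX WT, 35.8% of all probe sets tested were called at 6 h in either direction, and the Nptx2 change lay at the 99.95th percentile of signed changes.

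In MGE WT cultures Nptx2 was at log2 7.39 and 7.46 when silenced, 7.92 and 7.15 after 1 h of KCl and 10.10 and 9.84 after 6 h. The MGE KO arrays read 7.59 and 6.85 when silenced, 7.48 and 7.10 after 1 h and 8.88 and 8.01 after 6 h. Here too the 0 and 1 h arrays overlapped and both 6 h arrays lay above them, by less than in CTX cultures and by less in KO than in WT. The rise in MGE WT was log2 2.55 ± 0.59 (5.84-fold, limma adjusted p = 0.007), with 24.2% of all probe sets called. The call was lost without replicate 1 of MGE WT at 6 h (2.42, adjusted p = 0.065), with array weights (adjusted p = 0.16) and when only the compared groups were fitted (adjusted p = 0.093). In MGE KO, where 17% of probe sets were called, the difference was 1.22 ± 0.59 (2.34-fold, 95% interval -0.04 to 2.49, adjusted p = 0.19) and was not called. With a replicate block, which removes a shared difference between same-numbered arrays, it was called, but the MGE numbers were not taken to pair arrays.

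The second Nptx2 probe set moved the same way at 6 h in every culture. From 0 to 6 h it went from log2 4.76 and 4.22 to 7.74 and 6.98 in CTX WT, and from 4.66 and 4.48 to 6.66 and 6.34 in CTX KO. In MGE WT it went from 4.49 and 4.89 to 6.51 and 6.31, and in MGE KO from 4.11 and 4.08 to 5.51 and 5.09. All 4 pairs of groups were separated without overlap, and the rises were 2.87 ± 0.24 (limma adjusted p = 8.5e-07), 1.93 ± 0.24 (2.4e-05), 1.72 ± 0.24 (0.00024) and 1.20 ± 0.24 (0.0032) in that order. The MGE KO rise was thus called with this probe set and not with the first; without replicate 1 of MGE KO at 6 h it was 1.00 (adjusted p = 0.052). Apart from the 2 arrays of CTX WT at 6 h, all its values lay below the array median, so its differences are approximate, and the filter kept it only through that group. With no filter, the adjusted p-values of the 4 rises were 8.7e-07, 2.7e-05, 0.00028 and 0.004 in the same order.

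**Figure D1:**
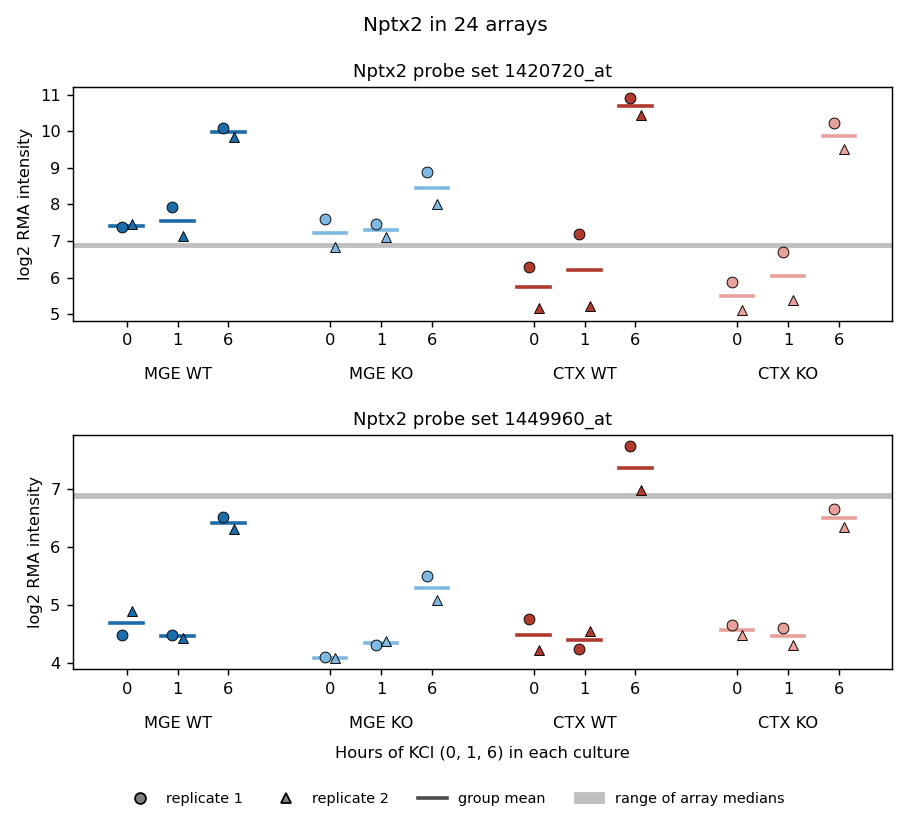
Log2 RMA intensity (vertical axis) of the 2 Nptx2 probe sets on each of 24 arrays, by culture and hours of KCl; circles are replicate 1, triangles replicate 2, bars group means and the grey band the range of array medians. The 6 h arrays stand above the 0 and 1 h arrays in all 4 cultures, from 10.46 to 10.92 for 1420720_at in CTX WT and from 8.01 to 8.88 in MGE KO.

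Nptx2 did not change detectably at 1 h. The differences from 0 h with the first probe set were 0.11 ± 0.59 in MGE WT, 0.07 ± 0.59 in MGE KO, 0.47 ± 0.59 in CTX WT and 0.56 ± 0.59 in CTX KO, and none was called (limma). The 95% interval in CTX WT, from -0.80 to 1.74, still allows more than a doubling. The arrays of the 0 h and 1 h groups overlapped in all 4 cultures. The rise from 1 to 6 h was called in CTX WT (4.49, adjusted p = 6.8e-05), CTX KO (3.83, adjusted p = 0.00021) and MGE WT (2.44, adjusted p = 0.014), with 30.5%, 32.5% and 13.1% of all probe sets called in these comparisons. Over all members, 0 of 7 probe sets were called at 1 h in any culture (limma; 0 at an unadjusted p under 0.05), where 1.06% of all probe sets were called in MGE WT, 0.915% in MGE KO, 2.33% in CTX WT and 2.32% in CTX KO.

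The genes listed beside Nptx2 as late or secreted activity-response genes were Bdnf, a neurotrophin, Vgf, a neuropeptide precursor, Pcsk1, a prohormone convertase, Scg2, a secretogranin, and Inhba, an activin subunit. In CTX WT, 3 of the 5 were already called higher at 1 h, namely Vgf (log2 3.45 ± 0.43), Bdnf (2.58 ± 0.45) and Pcsk1 (2.03 ± 0.46). At 6 h all 5 were called higher, with a median of 4.38 against -0.03 over all probe sets, and the rises of Pcsk1 (6.07), Bdnf (5.38) and Vgf (4.38) were of the order of the Nptx2 rise. In MGE WT, Vgf was called at 1 h (2.25 ± 0.43), and Vgf (3.05), Pcsk1 (2.76) and Bdnf (1.77) at 6 h. Differences in timing between Nptx2 and these genes were not tested.

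**Figure D2:**
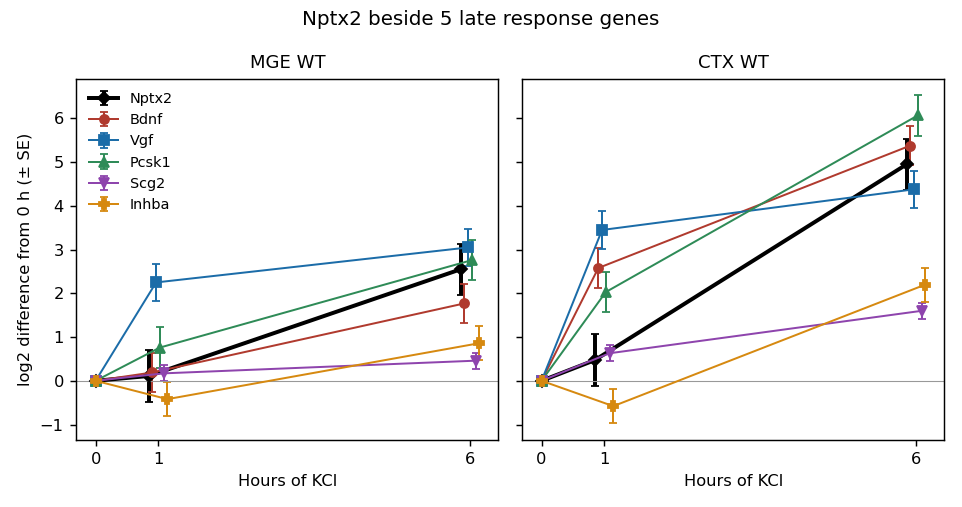
Log2 difference from 0 h (vertical axis, ± SE from the limma fit) against hours of KCl for Nptx2 probe set 1420720_at and 5 late response genes in MGE WT (left) and CTX WT (right); small sideways shifts only separate the symbols. Nptx2 lies near 0 at 1 h in both (0.11 and 0.47) and reaches 2.55 and 4.95 at 6 h, while Vgf has risen at 1 h in both.

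Nptx1, a secreted member best known in excitatory neurons, was much lower in MGE than in CTX cultures and was higher at 6 h than at 0 h in every culture. In CTX WT its log2 intensity was 8.97 and 8.89 when silenced, 9.25 and 8.94 after 1 h of KCl and 10.48 and 9.84 after 6 h. The CTX KO arrays read 8.59 and 8.28 when silenced, 8.77 and 8.48 after 1 h and 9.69 and 9.24 after 6 h. All CTX arrays were above the median and the 6 h arrays lay above the others of their genotype. The differences from 0 to 6 h were 1.22 ± 0.59 in CTX WT (2.34-fold, limma adjusted p = 0.13) and 1.03 ± 0.59 in CTX KO (2.04-fold, adjusted p = 0.20), neither of them called. With the replicate block, which removes a shared difference between same-numbered arrays, they were 1.22 ± 0.25 (adjusted p = 0.0019) and 1.03 ± 0.25 (adjusted p = 0.0054), and both were called.

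The second Nptx1 probe set, 1422130_at, was called higher at 6 h in CTX cultures without a block. It exceeded the array median on 6 of 24 arrays, those of CTX WT at 1 and 6 h and of CTX KO at 6 h. The filter thus kept it only through depolarized CTX groups, in which it was highest. In CTX WT it went from log2 6.68 and 6.62 when silenced to 8.50 and 7.57 after 6 h, and in CTX KO from 6.26 and 5.61 to 7.46 and 7.12. The groups did not overlap, and the rises were 1.39 ± 0.30 (2.62-fold, limma adjusted p = 0.002) and 1.36 ± 0.30 (2.56-fold, adjusted p = 0.0021). All CTX arrays at 0 h lay below the array median for this probe set, so these folds are approximate. On MGE arrays this probe set stayed between 3.41 and 4.52, below the array median on all 12, and no MGE change was called. Its response over the 6 CTX groups followed that of the first probe set, with a Pearson correlation of 0.99 over 6 group means that share arrays and scaling, given as a description.

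In MGE WT, Nptx1 was at log2 6.10 and 4.64 when silenced, 6.57 and 6.31 after 1 h of KCl and 8.24 and 6.70 after 6 h by its first probe set. The MGE KO arrays read 6.43 and 4.89 when silenced, 7.22 and 6.44 after 1 h and 8.11 and 6.82 after 6 h. The 0 and 6 h arrays did not overlap, but replicates lay up to 1.54 apart, and only 3 of the 12 MGE arrays exceeded the array median. The rises were 2.10 ± 0.59 in MGE WT (4.29-fold, limma adjusted p = 0.019) and 1.81 ± 0.59 in MGE KO (3.51-fold, adjusted p = 0.049), folds that are approximate because all 0 h arrays were below the array median. In WT the call was lost without replicate 1 at 6 h (1.33, adjusted p = 0.24) or replicate 2 at 0 h (1.37, adjusted p = 0.23), with array weights and when only the compared groups were fitted. In KO it was lost without replicate 1 at 6 h (1.17) or replicate 2 at 0 h (1.04), and under 5 of the other settings.

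Replicate 1 had the higher Nptx1 value in all 6 MGE groups, by a median of 1.37, and in all 6 CTX groups, by a median of 0.31. In MGE cultures a glutamatergic marker moved with it: Slc17a6, which encodes the vesicular glutamate transporter VGLUT2, lay between log2 7.19 and 8.53 on the 6 MGE arrays of replicate 1 and between 3.60 and 3.92 on the 6 of replicate 2. Among the other excitatory markers Tbr1 was higher in replicate 1 in 5 of 6 MGE groups (median difference 0.45), while Neurod6 (-0.16), Neurod2 (-0.11) and Slc17a7 (-0.21) were lower in 4 of 6. These 4 were below the median on all MGE arrays, and the list mean, higher in replicate 1 in 6 of 6 groups (0.84), was thus carried by Slc17a6 (3.95). The microglial list was higher in replicate 1 in 6 of 6 MGE groups too (median difference 0.59), and the interneuron list in 4 of 6 (0.03). Progenitor (-0.80) and vascular (-0.39) lists ran the other way and were lower in replicate 1 in 6 of 6. Astrocyte (-0.40) and oligodendrocyte lineage (-0.05) lists were lower in 5 of 6. The Slc17a6 difference was present at each time and in both genotypes. The part of any of these cell types in the Nptx1 values was not tested.

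**Figure D3:**
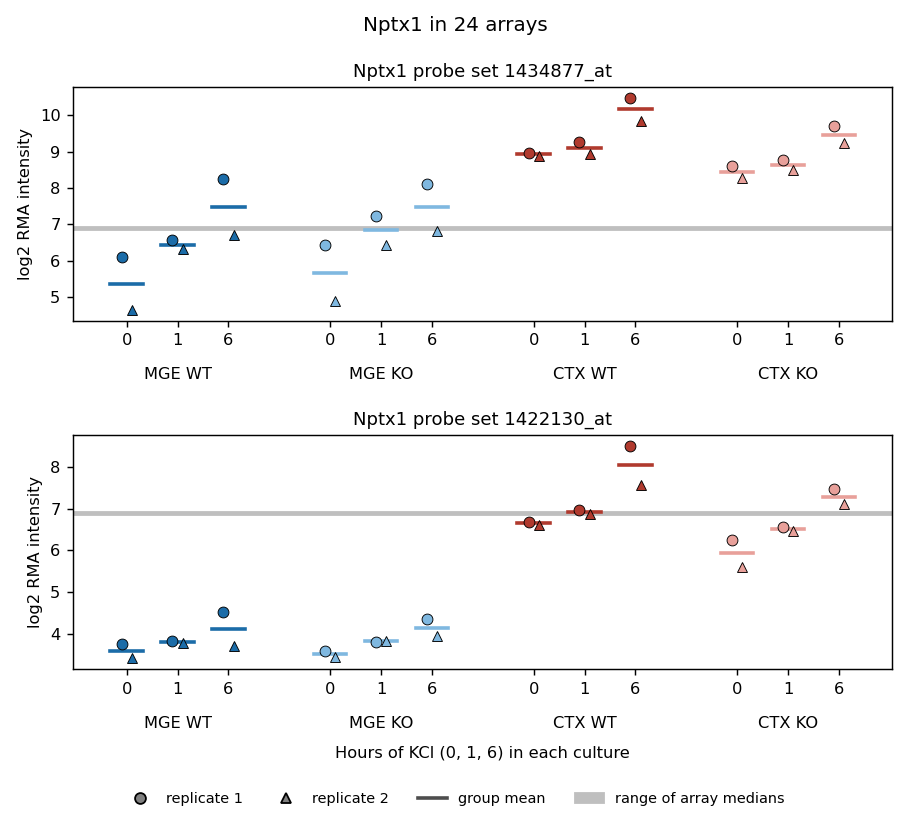
Log2 RMA intensity (vertical axis) of the 2 Nptx1 probe sets on each of 24 arrays, by culture and hours of KCl, with symbols as in the plot of Nptx2. For 1434877_at the CTX arrays lie between 8.28 and 10.48 and the MGE arrays between 4.64 and 8.24, and replicate 1 (circles) is the higher in every group.

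Nptxr, the membrane-anchored member, was the steadiest of the 3 by its first probe set. Its log2 intensity was 11.81 and 11.26 when silenced, 11.71 and 11.46 after 1 h of KCl and 11.55 and 11.31 after 6 h in MGE WT, and in CTX WT 12.54 and 12.61 when silenced, 12.46 and 12.67 after 1 h and 12.47 and 12.73 after 6 h. The MGE KO arrays read 11.84 and 11.33 when silenced, 11.74 and 11.33 after 1 h and 11.53 and 11.20 after 6 h, and in CTX KO 12.50 and 12.49 when silenced, 12.27 and 12.54 after 1 h and 12.31 and 12.53 after 6 h. The times overlapped in every culture, and all 12 CTX arrays lay above all 12 MGE arrays. The differences from 0 to 6 h were -0.11 ± 0.22 in MGE WT, -0.22 ± 0.22 in MGE KO, 0.02 ± 0.22 in CTX WT and -0.07 ± 0.22 in CTX KO, none of them called (limma). The 95% interval in CTX WT, from -0.44 to 0.49, does not reach a doubling or a halving.

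On the second Nptxr/Npcd probe set, 1450147_at, the CTX arrays lay between log2 7.29 and 8.07, all above the median, and the MGE arrays between 5.83 and 6.46, all below it, with no response called. On 1421181_at values ran from 5.85 to 7.23, with 6 of 24 arrays above the median. It went from 6.45 and 6.65 at 0 h to 7.23 and 7.22 at 6 h in CTX WT, a rise of 0.67 ± 0.21 (1.59-fold, limma adjusted p = 0.02). The same probe set went from 6.62 and 6.97 to 6.27 and 6.18 in MGE WT (-0.57 ± 0.21, adjusted p = 0.058), which was not called. The CTX WT call was lost in 3 of the 4 fits that left out 1 array, those without replicate 1 at 0 h (0.57) and without replicate 1 (0.67) or 2 (0.68) at 6 h. The 6 h changes in CTX WT of the 3 probe sets of this locus were thus 0.02, 0.27 and 0.67, and the difference between probe sets was not tested. The annotation gives 1450147_at and 1421181_at the same source sequence. Whether the 3 detect different transcripts was not tested.

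Cbx6, a Polycomb gene also spanned by Npcd, is no member and was looked at after its values were seen. Its 1424407_s_at probe set fell in CTX cultures at 6 h, by 0.44 ± 0.09 in WT (limma adjusted p = 0.0015) and 0.52 ± 0.09 in KO (adjusted p = 0.00035). Its 1429290_at probe set was higher in MGE than in CTX at 0 h (0.96 ± 0.19, adjusted p = 0.00057), the opposite of the Nptxr/Npcd probe sets 1434270_at and 1450147_at, while 1424407_s_at gave -0.19 ± 0.09 (adjusted p = 0.07).

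**Figure D4:**
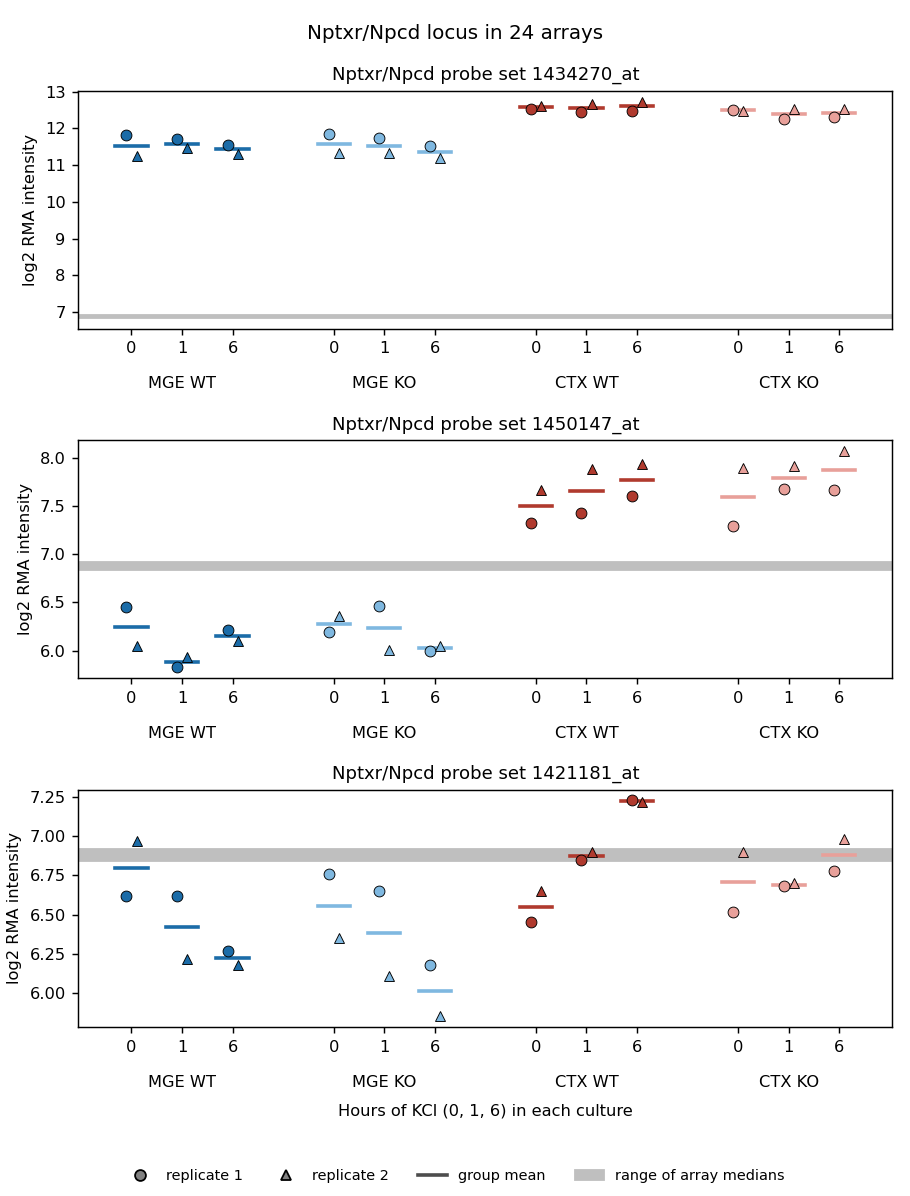
Log2 RMA intensity (vertical axis, with its own range in each panel) of the 3 probe sets annotated to Nptxr and Npcd on each of 24 arrays, by culture and hours of KCl, with symbols as in the plot of Nptx2. All CTX arrays of 1434270_at (12.27 to 12.73) and 1450147_at (7.29 to 8.07) lie above all MGE arrays, while 1421181_at overlaps between the sources at 0 h.

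Counted over the family at 6 h against 0 h, 3 of 7 probe sets were called in MGE WT (24.2% of all probe sets), 2 in MGE KO (17%), 4 in CTX WT (35.8%) and 3 in CTX KO (37.7%), all of them rises. Without 1449960_at, which the filter kept through 1 group, these were 2, 1, 3 and 2 of 6, not far from the shares of all probe sets. The probe sets behind these counts share 3 genes, and 1420720_at and 1449960_at share 1 transcript accession. The median difference over the 7 was 0.53 in MGE WT and 1.22 in CTX WT, beside 0.01 and -0.03 over all probe sets tested.

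**Figure D5:**
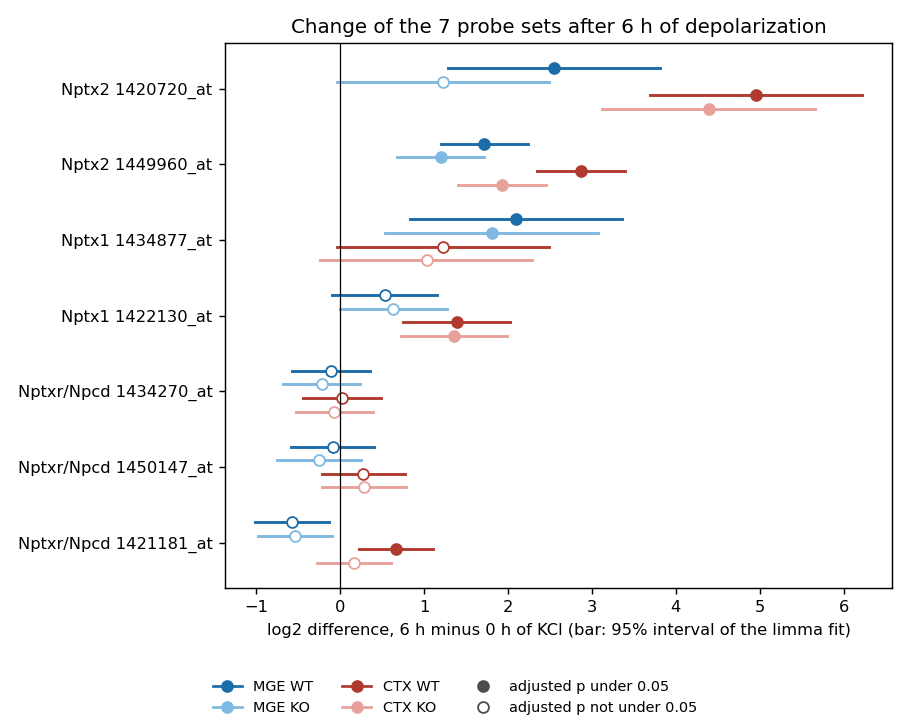
Log2 difference between 6 and 0 h of KCl (horizontal axis) with its 95% interval from the limma fit, for the 7 probe sets in 4 cultures; filled symbols have an adjusted p under 0.05. Both Nptx2 probe sets lie to the right of 0 in all cultures (1.20 to 4.95), Nptx1 between 0.53 and 2.10, and Nptxr/Npcd between -0.57 and 0.67.

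Npas4 KO cultures were compared with WT at each time, and 0 of 7 probe sets were called in either source at any time (limma). At an unadjusted p under 0.05 there were 1, 0 and 2 of the 7 at 0, 1 and 6 h in MGE cultures, and likewise 1, 0 and 2 in CTX cultures. Across all probe sets 0.019%, 0.038% and 0.0266% were called at 0, 1 and 6 h in MGE cultures, and 0%, 0.0038% and 0.0987% in CTX cultures (0.251% at 6 h with the replicate block; 122 probe sets had an unadjusted p under 0.05 at 0 h), so few genes of any kind passed this comparison. Nptx2 had lower values in KO at 6 h on every array: 8.88 and 8.01 against 10.10 and 9.84 in MGE, and 10.24 and 9.53 against 10.92 and 10.46 in CTX. The differences were -1.53 ± 0.59 in MGE (95% interval -2.80 to -0.26, unadjusted p = 0.021, limma adjusted p = 1) and -0.80 ± 0.59 in CTX (95% interval -2.07 to 0.46, adjusted p = 1). With the second probe set they were -1.11 ± 0.24 in MGE (adjusted p = 0.20) and -0.86 ± 0.24 in CTX (adjusted p = 0.56), and its genotypes did not overlap either. The share of all probe sets that separate in this way was not counted, so the separation is given only as a description. With array weights the MGE difference of the second probe set was called (adjusted p = 0.023).

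At 0 and 1 h the Nptx2 genotypes overlapped by the first probe set in both sources. By the second, MGE KO lay below MGE WT without overlap already at 0 h, at 4.11 and 4.08 against 4.49 and 4.89 (-0.59 ± 0.24, limma adjusted p = 0.24), and at 1 h, at 4.31 and 4.39 against 4.49 and 4.44 (-0.12 ± 0.24, adjusted p = 0.91), while in CTX the genotypes overlapped at both times. The test of whether the 6 h response itself differed between genotypes gave -1.32 ± 0.84 in MGE (limma adjusted p = 1) and -0.57 ± 0.84 in CTX (adjusted p = 1) by the first probe set, and -0.51 ± 0.34 and -0.94 ± 0.34 by the second. None was called, as for 0.0038% of all probe sets called in MGE and 0.00759% in CTX, and the interval in MGE, from -3.12 to 0.47, spans both no difference and a KO response far below that of WT. Whether this genotype difference was itself unequal between MGE and CTX was tested too, at -0.76 ± 1.19 for the first probe set, and was not called (0 of all probe sets were called by limma, 182 at an unadjusted p under 0.05). Of the 5 late response genes, 0 were called between genotypes at 6 h in either source (limma; 0 at an unadjusted p under 0.05), with medians of 0.05 in MGE and -0.09 in CTX.

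No Nptx1 difference between CTX KO and CTX WT was called at any of the 3 times. Its values were lower in KO on every array at each time by both probe sets. The share of all probe sets that separate in this way was not counted, so this is only a description. The differences by the first probe set were -0.50 ± 0.59 at 0 h, -0.47 ± 0.59 at 1 h and -0.69 ± 0.59 at 6 h, and by the second -0.72 ± 0.30, -0.41 ± 0.30 and -0.75 ± 0.30 (limma adjusted p = 1 for all 6). The same 2 arrays per group underlie both probe sets, so these are not separate observations. In MGE cultures the 2 genotypes overlapped at all 3 times (0.29, 0.38 and 0.00 by the first probe set). The 6 h response of Nptx1 differed between genotypes by -0.29 ± 0.84 in MGE and -0.20 ± 0.84 in CTX, not called.

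Nptxr/Npcd differed little between genotypes, by 0.05, -0.05 and -0.07 at 0, 1 and 6 h in MGE and by -0.08, -0.16 and -0.18 in CTX with 1434270_at, each ± 0.22 and none called. On 1421181_at the CTX difference at 6 h was -0.34 ± 0.21, with WT at 7.23 and 7.22 and KO at 6.78 and 6.98.

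MGE and CTX cultures were then compared directly. At 0 h in WT, 62.3% of all probe sets were called between them, and of the 7 pentraxin probe sets 1 was called higher and 4 lower in MGE. Nptx1 was lower in MGE by 3.56 ± 0.59 on the log2 scale with the first probe set (log2 -3.56, 11.8-fold, limma adjusted p = 0.00015) and by 3.06 ± 0.30 with the second (log2 -3.06, 8.37-fold, adjusted p = 1.3e-06). The MGE WT arrays at 0 h were below the array median for both probe sets, so these folds are approximate. At 6 h the differences were -2.69 and -3.92. Both probe sets were called lower at all 3 times in both genotypes, with 53.4% and 55.8% of all probe sets called in WT at 1 and 6 h and 47.6%, 45.4% and 54.3% in KO at 0, 1 and 6 h. Without 1 array at a time the 0 h value of the first lay between -4.29 and -2.83 and was called in 4 of 4 fits. The excitatory marker list differed in the same direction between the sources, as given above.

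Nptxr/Npcd was lower in MGE at all 3 times and in both genotypes with 1434270_at and 1450147_at, by -1.04 ± 0.22 (2.06-fold, limma adjusted p = 0.00084) and -1.25 ± 0.23 (2.37-fold, adjusted p = 0.00037) in WT at 0 h. The 1421181_at probe set did not differ detectably at 0 h (0.25 ± 0.21, adjusted p = 0.31) and was lower in MGE at 6 h (-0.99 ± 0.21, adjusted p = 0.00094).

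Nptx2 ran the other way at rest. In silenced WT cultures it was higher in MGE, at 7.39 and 7.46 against 6.29 and 5.18, a difference of 1.69 ± 0.59 (3.23-fold, limma adjusted p = 0.022). In KO cultures it was 1.72 ± 0.59 higher (3.30-fold, adjusted p = 0.027). The WT call was lost without replicate 1 (1.73, adjusted p = 0.058) or replicate 2 (1.66, adjusted p = 0.088) of MGE WT or replicate 2 of CTX WT (1.14, adjusted p = 0.20), and the KO call without replicate 1 of MGE KO (1.36) or replicate 2 of CTX KO (1.34). The second probe set, below the median in all these arrays, gave 0.20 ± 0.24 in WT and -0.47 ± 0.24 in KO and was not called. In CTX cultures replicate 1 was the higher for Nptx2 in 6 of 6 groups, by a median of 0.94, and so was the mean of the 5 microglial markers (median difference 0.57). Within that list Csf1r (2.55) and Aif1 (0.49) were higher in replicate 1 in 6 of 6 CTX groups and Trem2 (0.20) in 4 of 6, while Tyrobp (-0.42) and Cx3cr1 (-0.24) were lower in 5 of 6. The 3 progenitor markers averaged 1.12 higher in replicate 1, in 5 of 6 groups, with Mki67 at 1.43, Top2a at 1.45 and Nes at 0.51. Astrocyte (0.48) and oligodendrocyte lineage (0.40) lists were higher in replicate 1 in 5 of 6 CTX groups, and the vascular list (-0.66) was lower in 6 of 6. The interneuron list (0.22) was higher in replicate 1 in 3 of 6 and the excitatory list (-0.07) in 2 of 6. The part of any of these cell types in the Nptx2 spread was not tested.

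At 6 h the order of the sources was the reverse. Nptx2 was at 10.10 and 9.84 in MGE WT against 10.92 and 10.46 in CTX WT, without overlap, a difference of -0.71 ± 0.59 (limma adjusted p = 0.32), and of -1.44 ± 0.59 in KO (adjusted p = 0.052). The second probe set, kept by the filter only through CTX WT at 6 h, gave -0.95 ± 0.24 in WT (limma adjusted p = 0.004, or 0.0051 with no filter) and -1.20 ± 0.24 in KO (0.0008, or 0.00098 with no filter). The WT call was lost without replicate 1 of CTX WT at 6 h (-0.57, adjusted p = 0.071).

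The difference between sources in the 6 h response of Nptx2 was tested directly. By the first probe set it was called in KO cultures only. With the first probe set the MGE response minus the CTX response was -2.41 ± 0.84 in WT (limma adjusted p = 0.078, not called) and -3.16 ± 0.84 in KO (adjusted p = 0.032, called), and with the second -0.73 ± 0.34 in KO (adjusted p = 0.24). In WT the second gave -1.15 ± 0.34 with an adjusted p of 0.044, but the filter kept it only through CTX WT at 6 h, a group of this comparison, and with no filter the adjusted p was 0.055 and it was not called. Of all probe sets, 11.2% were called in this comparison in WT and 7.8% in KO. Leaving out 1 array ended each of these calls in most fits: the first probe set in KO was called in 1 of 8 such fits (-3.60 to -2.73) and the second in WT in 3 of 8 (-1.53 to -0.77). Of the late response genes, Bdnf (-3.61 ± 0.64), Pcsk1 (-3.31 ± 0.64) and Scg2 (-1.14 ± 0.26) had a smaller response in MGE WT, 3 of 5. For Nptx2 in WT that difference was not called by the first probe set, nor by the second with no filter. For Nptx1 the responses did not differ detectably between sources by the first probe set (0.88 ± 0.84 in WT) or the second (-0.86 ± 0.42, adjusted p = 0.19), and the signs were opposite.

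Ranked by the first probe set, the Nptx2 groups ran from CTX WT at 6 h (mean log2 10.69 ± 0.33, SD, n = 2) through MGE WT at 6 h (9.97 ± 0.18), CTX KO at 6 h (9.88 ± 0.50) and MGE KO at 6 h (8.44 ± 0.62) to the 4 MGE groups at 0 and 1 h (7.22 to 7.54) and the 4 CTX groups at 0 and 1 h (5.50 to 6.20). Among neighbours in this order, the arrays separated without overlap at 3 steps only: between CTX WT and MGE WT at 6 h, between CTX KO and MGE KO at 6 h, and between MGE KO at 6 h and MGE WT at 1 h. The Nptx1 groups ran from CTX WT at 6 h (10.16 ± 0.45) and CTX KO at 6 h (9.47 ± 0.32) to MGE WT at 0 h (5.37 ± 1.03), and every CTX group ranked above every MGE group. For Nptxr/Npcd the 6 CTX groups (12.40 to 12.60) and the 6 MGE groups (11.36 to 11.59) formed 2 blocks, and within each block all neighbours overlapped.

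Related genes were drawn from lists. These covered the AMPA receptors that pentraxins bind, proteins of the release and cleavage of neuronal pentraxins, and complement C1q, which shares binding partners with pentraxins. Other pentraxin-domain genes and other organizers that span the synaptic cleft were listed too. Of the 4 AMPA receptor subunits, Gria4 fell at 6 h in MGE WT (-0.39 ± 0.13, limma adjusted p = 0.036) and CTX WT (-0.68 ± 0.13, adjusted p = 0.0007), and the other 3 were not called. At 0 h Gria1 (1.83 ± 0.21) and Gria4 (1.51 ± 0.13) were higher in MGE than in CTX WT cultures, 2 of 4. In that comparison 62.3% of all probe sets were called in either direction. None of the 4 differed by a call between genotypes at 6 h.

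Of the 4 genes listed for release and cleavage, 0 were called at 1 or 6 h in WT cultures of either source (limma), and 1 had an unadjusted p under 0.05, in CTX at 6 h. At 6 h, 24.2% of all probe sets were called in MGE WT and 35.8% in CTX WT. Adam17, which encodes the protease TACE that cleaves Nptxr, fell at 6 h in CTX KO (-1.14 ± 0.30, limma adjusted p = 0.0074). In CTX WT it differed by -0.80 ± 0.30 between 6 and 0 h, just short of a call, and fell from 1 to 6 h (-0.95 ± 0.30, adjusted p = 0.026), and the KO and WT responses differed by -0.34 ± 0.42, not called. Adam17 was also lower in MGE than in CTX WT at 0 h (-1.07 ± 0.30, adjusted p = 0.0065), as was the receptor phosphatase Ptprd (-0.53 ± 0.12). The 3 C1q genes, made in brain mainly by microglia, were all higher in MGE than in CTX WT at 0 h, with C1qb at 3.01 ± 0.84 (limma adjusted p = 0.0063). In that comparison 62.3% of all probe sets were called in either direction. No C1q gene was called after depolarization. Only C1qb was called between sources in KO at 0 h (2.30 ± 0.84, limma adjusted p = 0.035) and in WT at 6 h (2.11 ± 0.84, adjusted p = 0.044). The shares of all probe sets called there were 47.6% and 55.8%. Of the other C1q genes, C1qa exceeded the array median on only 5 arrays and C1qc on only 9.

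Among 5 other pentraxin-domain genes only Ptx3, a secreted long pentraxin of innate immunity, was tested, since Crp, Apcs, Ptx4 and Svep1 did not exceed the median on enough arrays. Ptx3 rose in CTX WT at 6 h (1.82 ± 0.52, limma adjusted p = 0.014) and was lower in MGE than in CTX WT at 0 h (-2.51 ± 0.52, adjusted p = 0.00086). Of 17 other trans-synaptic organizers 13 were tested. At 0 h 3 of these were higher in MGE WT, namely Nrxn3 (0.93 ± 0.22), Nlgn2 (0.26 ± 0.09) and Cbln2 (1.5 ± 0.42), and 8 were lower, among them C1ql3 (-4.21 ± 0.57), Cbln4 (-3.73 ± 0.73), Cbln1 (-3.64 ± 0.31) and Lrrtm3 (-2.72 ± 0.38). Of all probe sets, 62.3% were called in that comparison. At 6 h in WT cultures 0 of 13 were called in MGE (limma; 1 at an unadjusted p under 0.05), and in CTX only Cbln1, a cerebellin, was called, as lower (-0.98 ± 0.31, adjusted p = 0.023). The shares of all probe sets called at 6 h were 24.2% in MGE WT and 35.8% in CTX WT.

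The genes whose pattern over the 12 group means was most like each member were found by Pearson correlation, as a description. For Nptx2 they were Rnpc3 (0.98), Pknox2 (0.973), Mpp6 (0.972), Dleu2 (0.971) and Mycbp (0.969), and 96 of 11788 genes exceeded 0.9. For Nptx1 they were Slc25a22 (0.986), Lss (0.984), Mef2d (0.983), Parp8 (0.982) and Spry1 (0.98), and 739 exceeded 0.9. For Nptxr/Npcd they were Nudt2 (0.996), Syt9 and Gng13 (each 0.995), Kcnmb4os2 and Sec14l3 (each 0.994), and 1114 of 11789 exceeded 0.9. The 12 means share arrays, scaling and the large difference between the 2 sources. Between the members, Nptx1 and Nptx2 correlated at 0.17 over the 12 means, at 0.72 over the 6 MGE means and at 0.91 over the 6 CTX means.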

How the data were processed

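Arrays were Affymetrix, hybridized with 100 ng of amplified RNA per the labels' protocols. The authors deposited intensity values on a linear scale, 1 per probe set and array, and the submitters' processing notes name RMA with no version. RMA summarizes several probes into 1 value and gives arrays a common distribution, so a shift shared by most genes cannot be seen. The intensities were converted to log2 and fitted with limma 3.58.1 in R 4.3.3 as 12 group means over 24 arrays (12 residual and 2.679 prior degrees of freedom), with 33 two-sided comparisons and Benjamini-Hochberg adjustment over 26335 probe sets. The number of arrays limits the precision. Where arrays of 2 groups are said not to overlap, this is a description, and the share of all probe sets without overlap was not counted. The fit was run on simulated data for the comparison of CTX KO with WT at 6 h, with independent noise on each array. Those data lacked the shared deviations of same-numbered arrays described below, so they cannot judge the tests where such deviations are present. All 3 Nptxr probe sets carry 2 gene names, a kind otherwise left out, and are given under both. Gene names came from the platform annotation. The members, comparisons, gene lists and the rule for named genes (members, list genes that were called or their largest, and the 5 most alike genes) were chosen with earlier results of these data known.

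Replicate numbers come from the labels, which do not say what they mark. The main fit had no replicate block for either source, so its SEs and p-values are unpaired. In CTX, deviations of same-numbered arrays correlated at 0.12 to 0.68 in all 15 pairs of groups (median 0.35), so the block was read there as pairing. In MGE 12 of 15 pairs exceeded 0.1 (range -0.28 to 0.79), with a median of 0.53 that was above the CTX median. Because not all MGE pairs exceeded 0.1, the block was not read there as pairing, although most same-numbered MGE arrays deviated together. Slc17a6, Nptx1 by its first probe set and the progenitor, microglial and vascular lists each differed in 1 direction between replicates in all 6 MGE groups. What the MGE numbers mark was not tested. Alternatives were other filters, normalizations and weights, an intensity trend, 32 added before log2, 1 probe set per gene, only the compared groups, the replicate block and leaving out each array. No sequence is printed.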

Additional observations from a re-analysis of the deposited data

Results flagged for a closer look

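Responses at 6 h that differed between MGE and CTX cultures by the test of the difference itself were the following, each as the MGE response minus the CTX response. Nptx2 probe set 1420720_at differed by -3.16 ± 0.84 in KO cultures (SE, limma adjusted p = 0.032), where it went from 7.59 and 6.85 to 8.88 and 8.01 in MGE and from 5.88 and 5.11 to 10.24 and 9.53 in CTX. Nptx2 probe set 1449960_at differed by -1.15 ± 0.34 in WT cultures (adjusted p = 0.044), but it was kept by the filter only through the 2 CTX WT arrays at 6 h, and with no filter it was not called (adjusted p = 0.055).

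Nptxr/Npcd probe set 1421181_at differed by -1.24 ± 0.29 in WT cultures (limma adjusted p = 0.016), going from 6.62 and 6.97 to 6.27 and 6.18 in MGE and from 6.45 and 6.65 to 7.23 and 7.22 in CTX. The other probe sets of that locus gave -0.13 ± 0.31 and -0.37 ± 0.33, not called. With 1 array left out the 3 differences were called in 1 of 8, 3 of 8 and 5 of 8 fits in the order given, and with array weights 1449960_at (adjusted p = 0.21) and 1421181_at (adjusted p = 0.17) were not called.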

How the results depend on the processing

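Of the called values of the 7 probe sets, 0 changed sign under any of the settings run. Nptx1 (1434877_at) in MGE WT at 6 h (2.10) fell short with array weights (2.10, limma adjusted p = 0.17) and with only the compared groups (2.10, adjusted p = 0.23), and ranged from 1.33 to 2.87 with 1 array left out. Nptx2 (1420720_at) in MGE WT at 6 h fell short with array weights (2.55, adjusted p = 0.16) and only the compared groups (2.55, adjusted p = 0.093), with a range of 2.42 to 2.68. Nptx1 in MGE KO at 6 h fell short with no filter (1.81, adjusted p = 0.066), quantile normalization (1.79, adjusted p = 0.053), 32 added (1.31, adjusted p = 0.053), 1 probe set per gene (1.81, adjusted p = 0.051) and only the compared groups (1.81, adjusted p = 0.18), with a range of 1.04 to 2.58. Nptx1 in CTX WT was called with 32 added (1.17, adjusted p = 0.049) and only the compared groups (1.22, adjusted p = 0.041), and in CTX KO with only the compared groups (1.03, adjusted p = 0.029). Nptx2 in WT MGE against CTX at 0 h fell short with array weights (1.69, adjusted p = 0.19), with a range of 1.14 to 2.25. The cause of these shifts was not tested.

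The replicate block changed the call of Nptx2 in MGE KO at 6 h (1.22, limma adjusted p = 0.0099), of the WT MGE minus CTX response of Nptx2 (-2.41, adjusted p = 0.003) and of Nptx1 in CTX WT (1.22, adjusted p = 0.0019) and CTX KO (1.03, adjusted p = 0.0054). In all 16 of 231 results were called only with the block, 0 were lost, and no KO against WT call for a member changed. In MGE, where the numbers were not taken to pair arrays, blocked calls are given beside the main fit and were not used to judge an effect.

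Over all probe sets, counts called at 6 h moved from 6368 to between 0 (only the compared groups) and 7743 in MGE WT over the other settings, from 9433 to between 4668 and 10798 in CTX WT and from 4467 to between 3155 and 6845 in MGE KO. KO against WT at 6 h moved from 7 to between 0 and 87 in MGE and from 26 to between 0 and 66 in CTX, or 302 without replicate 1 of CTX WT at 6 h. Without replicate 1 of MGE WT at 0 h, KO against WT at 0 h went from 5 to 7381, the 6 h count in MGE WT to 10202 and the 1 h count there from 280 to 3539. Signals below the array median, as for 1449960_at and for 1422130_at in MGE, limit what small differences can show.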
